A study of Mus musculus with 20 samples.

Results

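Of the 55416 genes with counts in the quadriceps of aged mice, 10 encode the troponin, tropomyosin and actin isoforms that build the thin filament of skeletal muscle. They were found by matching the Ensembl identifiers of the count table to the symbols Tnnt1, Tnnt3, Tnni1, Tnni2, Tnnc1, Tnnc2, Tpm1, Tpm2, Tpm3 and Acta1, and all 10 were present and passed the filter on low counts, among 14471 genes tested. The muscles came from male wild-type C57BL/6J mice of 26 to 28 months. Of the mice, 10 controls had received 50 µL of 0.9% saline by a single intramuscular injection, and 10 mice had received the same volume of pluripotent stem cell secretome. This product is the concentrated cell-free medium of partly differentiated human embryonic stem cells, which the paper's account of the treatment gives as diluted in saline. Both groups were injected in a fasted state. The injected quadriceps was taken 3 h later, and total RNA depleted of ribosomal RNA was sequenced in 1 library per mouse. The counts are from whole muscle, in which fewer cells of a type and less RNA per cell cannot be told apart.

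The thin filament is a polymer of actin along which tropomyosin lies in a groove, with a troponin complex at regular intervals. Troponin T binds tropomyosin, troponin I holds the filament in the inhibited state, and troponin C binds calcium and releases that inhibition. Slow, oxidative fibres and fast, glycolytic fibres build this filament from different genes, so that the ratio of fast to slow isoforms is a common readout of fibre type. Tnnt1, Tnni1, Tnnc1 and Tpm3 are the slow forms, Tnnt3, Tnni2, Tnnc2 and Tpm1 are the fast forms, Tpm2 (beta-tropomyosin) is made in both kinds of fibre, and Acta1 is the skeletal alpha-actin of both. Tpm1 and Tpm3 also give tropomyosins of non-muscle cells, and slow Tnnc1 is also the troponin C of the heart.

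Library totals ran from 13286983 to 22987237 counts. The share of counts on Ttn, which encodes the giant sarcomere protein titin, followed the library numbers: it was 7.02% to 11.03% in libraries 1 to 5 (all saline), 16.4% to 21.1% in libraries 6 to 15 (5 saline and 5 secretome) and 14.2% to 14.7% in libraries 16 to 20 (all secretome). No source used here names a batch, and outside libraries 6 to 15 the treatment and the library number cannot be told apart. The treatment comparisons of the members and of their ratios are therefore given for all 20 muscles and within libraries 6 to 15. Several correlations and genes of other lists are given for all 20 muscles only. All 8 myofibre markers were detected in both treatments, as were all markers of every other list except the cardiac one. The summed level was highest for the myofibre markers, with a median of 218685 CPM in saline and 275735 CPM in secretome muscle. CPM are counts per library size, scaled by TMM, the trimmed mean of M-values. The highest sum of any other list was 1375 CPM, for red blood cell markers in saline 3. The summed level of the 6 cardiac markers ranged from 62.7 to 354 CPM in saline muscle and from 71.6 to 337 CPM in secretome muscle. Actc1 made up most of that sum, while Myl7 and Nppa were at or near 0 in both treatments. Myl7 was at 0 in every saline library and at most 0.0487 CPM in secretome muscle. Nppa was at most 0.124 CPM in saline muscle and at 0 in every secretome library.

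The promoters of the 3 slow troponin genes are shown because their transcripts varied together over the 20 muscles. RefSeq promoter sequences on GRCm38.p6, covering 300 bases around an annotated transcription start, were matched by symbol for 8 of the 10 members. The windows are Tnnt1 at chr7:4515926-4516225 on the minus strand, Tnni1 at chr1:135799171-135799470 on the plus strand (the first of its 2 listed starts) and Tnnc1 at chr14:31208062-31208361 on the plus strand, each written 5′ to 3′ on the strand of the gene. Capitals mark E-boxes (CANNTG, the letters bound by myogenic helix-loop-helix factors), which read the same on both strands.
Tnnt1: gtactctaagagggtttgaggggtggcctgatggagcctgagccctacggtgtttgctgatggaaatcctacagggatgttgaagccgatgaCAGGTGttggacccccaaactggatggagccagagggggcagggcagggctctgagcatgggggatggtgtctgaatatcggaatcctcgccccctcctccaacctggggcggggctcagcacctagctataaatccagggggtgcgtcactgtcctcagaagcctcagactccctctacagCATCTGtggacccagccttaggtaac
Tnni1: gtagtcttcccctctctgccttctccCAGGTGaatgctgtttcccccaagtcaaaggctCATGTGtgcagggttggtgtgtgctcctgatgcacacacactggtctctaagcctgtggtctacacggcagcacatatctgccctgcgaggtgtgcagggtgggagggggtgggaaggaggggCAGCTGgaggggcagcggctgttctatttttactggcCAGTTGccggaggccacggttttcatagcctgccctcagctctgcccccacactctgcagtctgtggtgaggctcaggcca
Tnnc1: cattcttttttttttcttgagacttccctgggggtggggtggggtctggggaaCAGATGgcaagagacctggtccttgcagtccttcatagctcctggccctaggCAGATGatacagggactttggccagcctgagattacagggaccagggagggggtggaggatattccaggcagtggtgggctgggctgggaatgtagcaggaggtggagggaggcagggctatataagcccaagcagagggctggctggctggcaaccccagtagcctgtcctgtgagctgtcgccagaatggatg
The Tnnt1 window held 2 E-boxes, the Tnni1 window 4 and the Tnnc1 window 2, and 72.3% of all 32851 promoters of 300 bases held at least 1. The Tnnt1 window also held 1 TATA box (TATAAA, found in 13.6% of promoters) and the Tnnc1 window 1 M-CAT element (CATTCC, 14.7%), both searched on either strand, and none of the 3 windows matched the MEF2 site (3.19% of promoters) or the CArG box (1.63%). These matches describe the letters of the windows and do not show binding.

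The slow troponins were low in every muscle, and their coefficients of variation, 132% to 242% within a treatment, were above those of every other member, 9.26% to 66.8%. Slow troponin T, Tnnt1, ranged over the saline muscles from 0.0464 CPM in saline 6 through a median of 2.28 to 27.3 CPM in saline 8, and over the secretome muscles from 0.234 CPM in secretome 10 through 0.978 to 25.4 CPM in secretome 8. These levels rested on 1 to 413 counts in saline and 4 to 538 counts in secretome libraries. The groups overlapped across their ranges, with 1 muscle of each treatment far above the others. Slow troponin I, Tnni1, ranged from 0.464 through 2.24 to 22.02 CPM in saline muscle and from 0 in secretome 3 through 0.664 to 19.3 CPM in secretome muscle. Slow troponin C, Tnnc1, ranged from 0.186 through 3.49 to 23.01 CPM in saline muscle and from 0 in secretome 10 through 0.670 to 27.4 CPM in secretome muscle. For both genes the highest muscle of each treatment was the one that was highest in Tnnt1, saline 8 and secretome 8, and the third highest of the 20 was saline 5, at 10.9 CPM of Tnnt1, 8.84 CPM of Tnni1 and 17.7 CPM of Tnnc1. Slow tropomyosin, Tpm3, was higher and less variable, from 19.1 through 28.3 to 70.9 CPM in saline muscle and from 14.7 through 23.7 to 78.3 CPM in secretome muscle. Saline 8 and secretome 8 were again the highest. Tpm3 did not fall with the slow troponins in every muscle. Saline 3 held 49.3 CPM of Tpm3 at 0.450 CPM of Tnnt1, and saline 6 held 19.1 CPM at 0.0464 CPM. The part of non-muscle cells in the Tpm3 level was not tested.

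**Figure D1:**
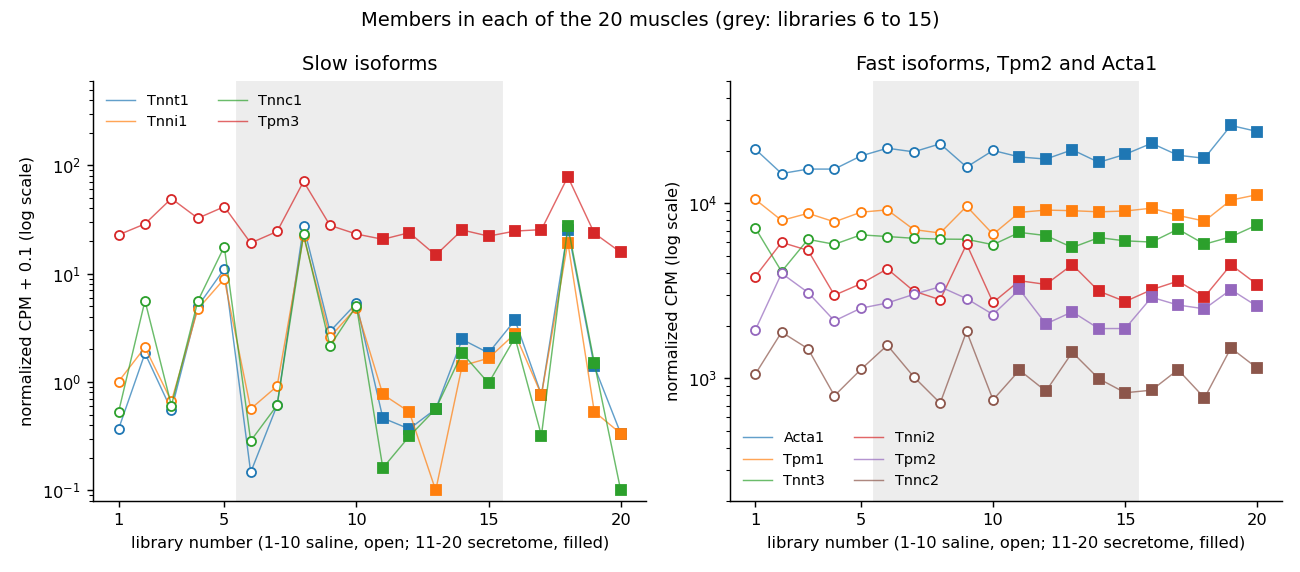
Normalized CPM of each member (y axis, log scale, 0.1 CPM added for the slow isoforms) against library number (x axis), with saline muscles as open circles and secretome muscles as filled squares; the grey band covers libraries 6 to 15. The 3 slow troponins peak together in libraries 5, 8 and 18 (saline 5, saline 8 and secretome 8), while the fast isoforms, Tpm2 and Acta1 stay within narrow bands.

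The 3 slow troponin genes varied together from muscle to muscle. Correlations were computed on log2(CPM + 0.1) in a family of 22, with two-sided permutation p-values from 100000 resamples, of which 1e-05 is the smallest possible, and Benjamini-Hochberg adjustment over the family. Tnnt1 correlated with Tnni1 at Pearson's r = 0.90 and Spearman's rho = 0.88 over 20 muscles (both p = 1e-05, adjusted p 5.5e-05 and 4.4e-05), and r was 0.82 without the 2 muscles farthest from the median of Tnnt1. Tnnt1 and Tnnc1 gave r = 0.94 and rho = 0.93 (both p = 1e-05, adjusted p 5.5e-05 and 4.4e-05), with r = 0.91 without the 2 farthest muscles. The relation was present in each treatment, at r = 0.97 for Tnnt1 and Tnnc1 in saline and 0.97 in secretome muscle, and at r = 0.96 within libraries 6 to 15 (permutation p = 3e-05, adjusted p = 0.000132). Tnni1 and Tnnc1 gave r = 0.88 and rho = 0.86 (both p = 1e-05, adjusted p 5.5e-05 and 4.4e-05). Tpm3 followed Tnnt1 less closely, at r = 0.74 (permutation p = 0.00022, adjusted p = 0.000691) and rho = 0.68 (p = 0.00135, adjusted p = 0.00371), and r was 0.48 without the 2 farthest muscles. Within libraries 6 to 15, r was 0.78 (permutation p = 0.0088, adjusted p = 0.0194) and rho 0.68 (p = 0.0354, adjusted p = 0.0780).

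The genes whose pattern was most like that of Tnnt1 were other slow-fibre genes. Among 14407 tested genes with a symbol other than the members, the 5 with the highest Pearson correlation of log2 CPM with Tnnt1 over the 20 muscles, after the mean of each treatment was removed, were Myh7 (slow myosin heavy chain, 0.97), Myl2 (0.93) and Myl3 (0.90) (slow myosin light chains), Myoz2 (a Z-disc protein of slow fibres, 0.84) and Atp2a2 (the slow-fibre calcium pump SERCA2, 0.84). Myh7 ranged from 0.0464 CPM in saline 6 to 248 CPM in saline 8 and from 0 in secretome 10 to 215 CPM in secretome 8, so that the same muscles stood at its top.

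The fast troponins were between 723 and 7541 CPM in every muscle. Fast troponin T, Tnnt3, ranged from 4079 CPM in saline 2 through 6244 to 7257 CPM in saline muscle and from 5598 through 6409 to 7541 CPM in secretome muscle. Saline 2 stood apart below the other saline muscles, and the groups otherwise overlapped. Fast troponin I, Tnni2, ranged from 2716 through 3645 to 5988 CPM in saline muscle and from 2750 through 3440 to 4469 CPM in secretome muscle. Fast troponin C, Tnnc2, ranged from 723 through 1090 to 1859 CPM in saline muscle and from 773 through 1056 to 1493 CPM in secretome muscle. In both genes the secretome muscles lay inside the span of the saline muscles. In the annotation available here, Tnnc2 shares 592 exonic bases with Ube2c on the other strand, a gene with 2 to 21 counts per library, and whether the counting used strand is not given in the sources used here.

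Fast troponin I and C varied together, and no correlation of fast troponin T with either passed the test. Tnni2 and Tnnc2 gave r = 0.94 and rho = 0.92 over 20 muscles (both permutation p = 1e-05, adjusted p 5.5e-05 and 4.4e-05), r = 0.91 without the 2 farthest muscles, and r = 0.95 within libraries 6 to 15 (permutation p = 0.00012, adjusted p = 0.00044). For Tnnt3 and Tnni2, r was -0.31 (permutation p = 0.184, adjusted p = 0.252) and rho 0.11 (p = 0.634, adjusted p = 0.734), and for Tnnt3 and Tnnc2, r was -0.21 (permutation p = 0.395, adjusted p = 0.511) and rho 0.17 (p = 0.461, adjusted p = 0.597). Without the 2 muscles farthest from the median of Tnnt3, r was 0.17 and 0.21. In libraries 6 to 15, the Ttn share of counts correlated with Tnni2 at r = -0.70 (permutation p = 0.0217, adjusted p = 0.0398, rho = -0.53 with p = 0.123 and adjusted p = 0.208) and with Tnnc2 at r = -0.72 (permutation p = 0.0176, adjusted p = 0.0351, rho = -0.60 with p = 0.0734 and adjusted p = 0.135). Both relations rested on the 2 muscles farthest from the median share, since r was -0.02 and -0.30 without them. The genes most like Tnnt3 by the same measure were Rtn4 (0.86), which encodes a protein of the endoplasmic reticulum, Ctr9 (0.85), Rtraf (0.85), Rad23b (0.84) and Gorasp2 (0.83). Over the 10 muscles of libraries 6 to 15 the correlation was 0.96 for Rtn4, and the other 4 were between 0.15 and 0.42.

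**Figure D2:**
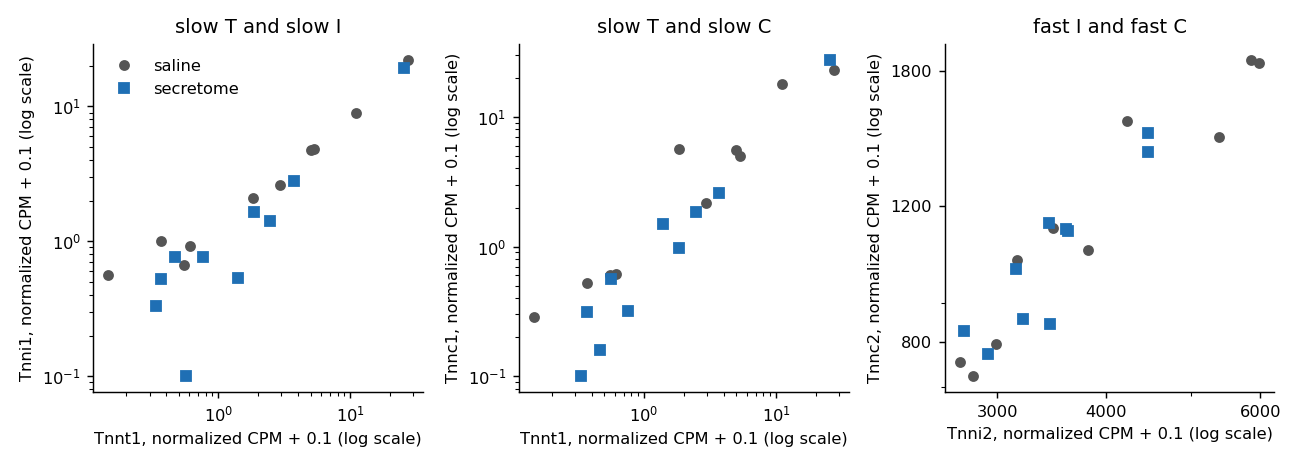
Each point is 1 muscle, with normalized CPM plus 0.1 of 2 genes on log axes, saline as circles and secretome as squares. Slow troponin T follows slow troponin I (r = 0.90) and slow troponin C (r = 0.94), and fast troponin I follows fast troponin C (r = 0.94), in both treatments.

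Alpha-tropomyosin, Tpm1, ranged from 6662 through 8383 to 10549 CPM in saline muscle and from 7923 through 9066 to 11214 CPM in secretome muscle. Beta-tropomyosin, Tpm2, ranged from 1881 through 2777 to 3988 CPM in saline muscle and from 1927 through 2539 to 3223 CPM in secretome muscle, and it took 15.1% to 33.2% of the counts on the 3 tropomyosin genes in saline and 17.5% to 26.6% in secretome muscle. Skeletal actin, Acta1, ranged from 14807 through 19181 to 21893 CPM in saline muscle and from 17156 through 18953 to 27878 CPM in secretome muscle. The groups overlapped in all 3 genes, and the 2 muscles with the most Acta1 were secretome 9 and secretome 10. Together the 10 members took 3.65% to 4.88% of the counts of a library. Reads of Acta1 could be shared with the similar cardiac actin gene Actc1, which lay between 62.0 and 352 CPM, and how the counting treated reads that align to more than 1 place is not given in the sources used here.

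Per kilobase of exon, Acta1 had the highest level of the members, at 12668 ± 2107 CPM per kb (SD, n = 20), followed by Tnnt3 at 3965 ± 454, Tnni2 at 2521 ± 666, Tnnc2 at 1424 ± 441, Tpm1 at 1357 ± 184 and Tpm2 at 915 ± 191 CPM per kb. The slow forms followed, with Tpm3 at 5.04 ± 2.80, Tnnc1 at 4.57 ± 7.77, Tnnt1 at 2.06 ± 3.59 and Tnni1 at 1.04 ± 1.72 CPM per kb. Acta1 exceeded Tnnt3 in 20 of 20 muscles and Tpm2 exceeded Tpm3 in 20 of 20, while Tnnc2 exceeded Tpm1 in 10 of 20 and these neighbours did not differ beyond their spread. Among the slow genes, Tpm3 exceeded Tnnc1 in 15 of 20 muscles, Tnnc1 exceeded Tnnt1 in 17 and Tnnt1 exceeded Tnni1 in 17, with standard deviations larger than the differences of their means. With the median length of coding transcripts in place of all exons, Tpm1 moved above Tnnc2, at 5360 ± 727 CPM per kb, and Tnni2 exceeded it in 10 of 20 muscles. On that scale Tpm2, at 1631 ± 340, exceeded Tnnc2, at 1627 ± 504, in 9 of 20 muscles. The order of the slow genes also depended on the length used. Per kilobase of coding transcript, Tpm3 exceeded Tnnc1 in 20 of 20 muscles, but Tnnc1 exceeded Tnnt1 in 11 and Tnnt1 exceeded Tnni1 in 11.

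The share of the slow gene in its pair shows how far the balance lay to the fast side. Tnnt1 took from 0.000718% (saline 6, exact 95% interval 1.82e-05% to 0.00400%) to 0.435% (saline 8, 0.394% to 0.479%) of the counts on Tnnt3 and Tnnt1 in saline muscle, and from 0.00311% (secretome 10, 0.000846% to 0.00795%) to 0.433% (secretome 8, 0.397% to 0.471%) in secretome muscle. Tnni1 took 0.0104% to 0.776% of its pair in saline and at most 0.655% in secretome muscle, where 0 of 86816 counts in secretome 3 allow a share of up to 0.00346% by the limit of 3 counts (0.00425% by the exact interval). Tnnc1 took 0.0120% to 3.09% of its pair in saline and at most 3.42% in secretome muscle, where 0 of 19517 counts in secretome 10 allow a share of up to 0.0154% by the same limit (0.0189% by the exact interval). Tpm3 took 0.207% to 1.04% of the counts on Tpm1 and Tpm3 in saline and 0.139% to 0.979% in secretome muscle. These intervals and limits cover counting error only. In each pair the highest share of both treatments belonged to saline 8 and secretome 8.

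Whether the secretome shifted the balance of fast and slow isoforms was tested with the log2 ratio of fast to slow counts in each muscle, with 0.5 added to each count. The ratio of troponin T, Tnnt3 over Tnnt1, was 11.79 ± 2.69 in saline and 12.40 ± 2.11 in secretome muscle (SD, n = 10 each), a difference of 0.61 (two-sided permutation test with 100000 resamples, p = 0.577, adjusted over the 4 ratios p = 0.577). The troponin I ratio, Tnni2 over Tnni1, was 10.69 ± 2.06 in saline and 12.13 ± 2.63 in secretome muscle, a difference of 1.44 (permutation p = 0.194, adjusted p = 0.263). The troponin C ratio, Tnnc2 over Tnnc1, was 8.99 ± 2.62 and 10.65 ± 2.91, a difference of 1.66 (permutation p = 0.197, adjusted p = 0.263). The tropomyosin ratio, Tpm1 over Tpm3, was 8.04 ± 0.682 and 8.56 ± 0.753, a difference of 0.53 (permutation p = 0.124, adjusted p = 0.263). Both genes of this last ratio also give tropomyosins of non-muscle cells, whose part in it was not tested. All 4 differences were toward the fast isoform in secretome muscle, and none had a p under 0.05 by this test. Because the slow genes varied together, the 4 directions are not independent of each other. Of the 10 secretome muscles, 8, 6, 8 and 9 had a ratio above the saline median in the order given.

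The differences within libraries 6 to 15 were 1.21, 2.46, 2.01 and 0.70 in the same order (two-sided exact permutation tests over 5 against 5, p = 0.492, 0.183, 0.246 and 0.0952; adjusted p = 0.492, 0.328, 0.328 and 0.328), where the smallest p possible is 0.00794. Between libraries 16 to 20 and 1 to 5 they were 0.01, 0.42, 1.30 and 0.36 (exact permutation p = 0.992, 0.770, 0.540 and 0.516). The difference between these 2 sets was itself tested by permutation and gave p = 0.374 to 0.792 over the 4 ratios. Single muscles moved these values. Without saline 8 the troponin T difference was 0.17 over 20 muscles and 0.22 within libraries 6 to 15, while without saline 6, with its single Tnnt1 count, it was 1.13 and 2.38. The troponin I difference was 0.85 over all muscles and 1.3401 within libraries 6 to 15 without secretome 3, the library with 0 counts of Tnni1, and the value over all muscles was 1.98 without secretome 8. The troponin C difference was 2.30 without secretome 8, and 0.96 within libraries 6 to 15 without saline 8. The tropomyosin difference was 0.74 without secretome 8 (exact permutation p = 0.00643) and 0.36 without saline 8 (exact permutation p = 0.238), and within libraries 6 to 15 it was 0.91 without saline 6 (exact permutation p = 0.00794) and 0.33 without saline 8 (exact permutation p = 0.246).

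**Figure D3:**
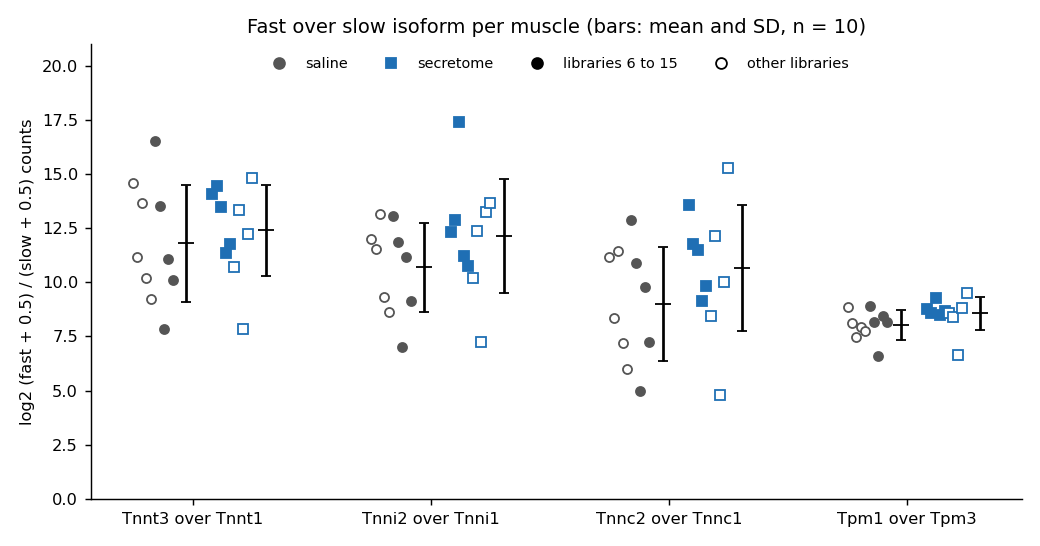
Log2 ratio of fast to slow isoform counts (y axis, 0.5 added to each count) for the 4 pairs, with 1 point per muscle, filled for libraries 6 to 15 and open for the others; bars are the mean and SD of 10 muscles. Saline 8 and secretome 8 are the lowest points of each pair, and the means differ by 0.61, 1.44, 1.66 and 0.53 with overlapping groups.

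Each gene was also compared on its own with the quasi-likelihood F-test of edgeR across all tested genes, at a 5% false discovery rate (Benjamini-Hochberg). Of the 10 members, 0 passed between the treatments over all 20 muscles, where 1 of 14471 genes did (0.00691%). At an unadjusted p under 0.05 the count was 0 of 10, beside 15.7% of all tested genes, and 0 of 10 passed with DESeq2, which called 1.25% of its genes, or with voom. The slow troponins had the largest differences and the largest errors. For Tnnt1 the log2 fold change, secretome against saline, was -0.54 (SE 0.940, adjusted p = 0.804 by edgeR). It was -0.76 for Tnni1 (SE 0.870, edgeR adjusted p = 0.689) and -0.76 for Tnnc1 (SE 0.989, edgeR adjusted p = 0.733). Leaving out 1 library decided the size and, for Tnnt1, the sign, since Tnnt1 was at -2.13 without secretome 8 and at 0.31 without saline 8, Tnni1 at -2.40 and -0.03, and Tnnc1 at -2.84 and -0.22. Tpm3 was at -0.31 (SE 0.285, edgeR adjusted p = 0.611), with -0.64 and -0.12 without these same libraries.

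The abundant members differed by less than 0.25 on the log2 scale. The fold change was 0.08 for Tnnt3 (SE 0.0974, edgeR adjusted p = 0.724), -0.20 for Tnni2 (SE 0.153, edgeR adjusted p = 0.518) and -0.20 for Tnnc2 (SE 0.180, edgeR adjusted p = 0.590). Among the tropomyosins it was 0.15 for Tpm1 (SE 0.102, edgeR adjusted p = 0.467) and -0.14 for Tpm2 (SE 0.133, edgeR adjusted p = 0.637). Acta1 was at 0.16 (SE 0.115, edgeR adjusted p = 0.499). With trends on gene length and GC content removed from each library, Tnni2 and Tpm2 were at 0.000665 and 0.02. Single libraries also moved these values: without saline 2 the fold change was 0.02 for Tnnt3, -0.12 for Tnni2, -0.12 for Tnnc2 and -0.06 for Tpm2. Without saline 9 it was -0.13 for Tnni2 and -0.12 for Tnnc2, without secretome 10 it was 0.05 for Tnnt3, and without secretome 9 it was 0.10 for Acta1. The median over the 10 members was -0.20, beside -0.03 over all tested genes.

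Among the 5 saline and 5 secretome muscles of libraries 6 to 15, 0 of 10 members passed the false discovery rate, as did 0% of 14469 genes, and at an unadjusted p under 0.05 there were 2 members beside 9.95% of all genes. These were Tnni1, with a log2 fold change of -2.91 (SE 1.15, unadjusted p = 0.0312, edgeR adjusted p = 0.473), and Tnnc1, with -3.16 (SE 1.27, unadjusted p = 0.0332, edgeR adjusted p = 0.474). Tnnt1 was at -2.75 (SE 1.28, edgeR adjusted p = 0.519). In these libraries Tnnt1 measured 0.0464, 0.510, 27.3, 2.83 and 5.22 CPM in saline 6 to 10 and 0.364, 0.269, 0.463, 2.37 and 1.75 CPM in secretome 1 to 5. For Tnnt1 the secretome muscles lay within the range of the saline muscles, and saline 8 held the highest value. For Tnni1, secretome 3 at 0 and secretome 2 at 0.430 CPM lay below the lowest saline muscle, saline 6 at 0.464 CPM. For Tnnc1, secretome 1 at 0.0607 CPM lay below saline 6 at 0.186 CPM. The other secretome muscles lay within the saline range in both genes, and saline 8 was again the highest. Without saline 8 the fold changes were -1.01 for Tnnt1, -1.39 for Tnni1 and -1.49 for Tnnc1, with edgeR adjusted p-values across the muscles left out of 0.355 to 0.735. Of the other members, Tpm3 was at -0.62, Tpm2 at -0.29, Tpm1 at 0.21, Tnnc2 at -0.17, Tnni2 at -0.09, Acta1 at -0.07 and Tnnt3 at 0.03. Here Tpm3 was at -0.13 without saline 8.

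Acta1 had the smallest p-value of the members in the test of whether the treatment difference changed with the range of libraries. Its level was 17063 ± 2385 CPM in libraries 1 to 5, 19687 ± 2157 in the saline and 18561 ± 1172 in the secretome muscles of libraries 6 to 15, and 22520 ± 4253 in libraries 16 to 20 (SD, n = 5 each). The log2 fold change was 0.40 (SE 0.177, unadjusted p = 0.0419, edgeR adjusted p = 0.290) between libraries 16 to 20 and 1 to 5, beside 16.1% of 14667 genes with an unadjusted p under 0.05, and -0.07 (SE 0.115) within libraries 6 to 15. The difference between these was tested as an interaction and was -0.49 (SE 0.195, unadjusted p = 0.0212, edgeR adjusted p = 0.342). Acta1 was 1 of 10 members at an unadjusted p under 0.05 in that test, beside 11.1% of all genes, and 0 of 10 passed the false discovery rate, beside 0.0553%. For the slow troponins the interaction was -3.55 for Tnnt1, -3.40 for Tnni1 and -3.28 for Tnnc1, with standard errors of 1.87, 1.71 and 1.99 and edgeR adjusted p-values of 0.506, 0.483 and 0.576. Without secretome 8 these interactions were -1.44, -1.18 and -0.66, and without saline 5 they were -4.55, -4.15 and -4.27. Between libraries 16 to 20 and 1 to 5 the fold changes of these genes were 0.78 (SE 1.21), 0.47 (SE 1.13) and 0.10 (SE 1.33).

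**Figure D4:**
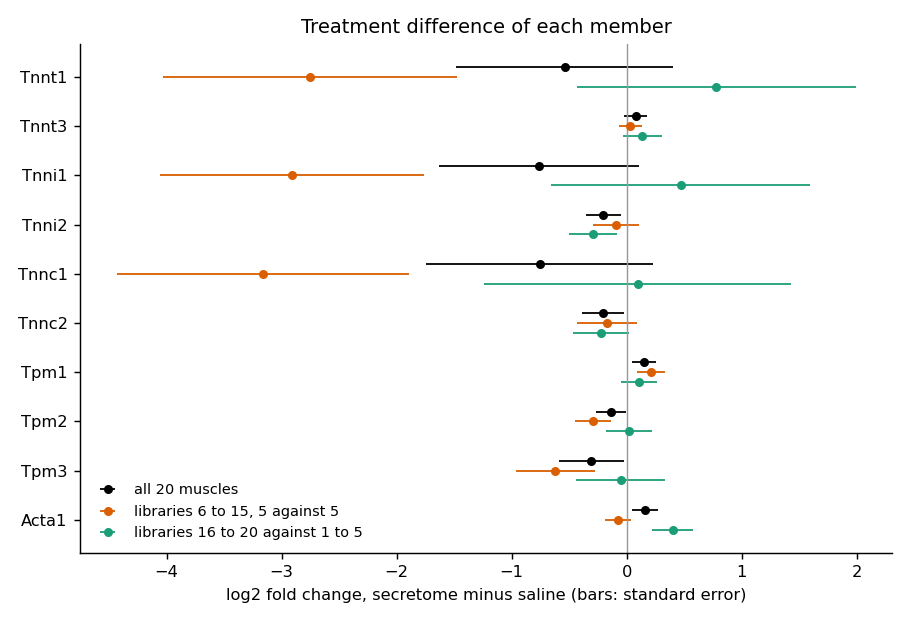
Log2 fold change of each member, secretome minus saline (x axis), with bars of 1 standard error, for all 20 muscles, for libraries 6 to 15 and for libraries 16 to 20 against 1 to 5. The slow troponins lie between -2.75 and -3.16 in libraries 6 to 15 with standard errors above 1, and the abundant members lie between -0.30 and 0.40 in all 3 comparisons, with Acta1 at 0.40 in libraries 16 to 20 against 1 to 5.

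Other genes of the thin filament and of the same fibre types were taken from fixed lists. Of the related isoforms, 0 of 6 tested were called at a 5% false discovery rate, and Acta2, the actin of smooth muscle, was at -0.54 (SE 0.171, edgeR adjusted p = 0.166), from 19.1 ± 3.82 to 13.1 ± 4.91 CPM (SD, n = 10 each). All 6 tested smooth muscle markers had negative fold changes, 3 of them at an unadjusted p under 0.05, beside 8084 of 14471 tested genes that were negative and 9.21% that were lower at that p, and their summed level ranged from 120 to 186 CPM in saline and 95.2 to 149 CPM in secretome muscle. Their part in the Acta2 value was not tested. Actb, a cytoplasmic actin, was at -0.19 (edgeR adjusted p = 0.531). The next list holds 27 genes of thin filament assembly, capping and length, and 0 of 27 passed over all 20 muscles. At an unadjusted p under 0.05, 7 were higher and 1 lower, beside 6.52% and 9.21% of all tested genes. The median was 0.13. Within libraries 6 to 15 the median was 0.07, with 4 of 27 at an unadjusted p under 0.05, beside 9.95% of all genes. Between libraries 16 to 20 and 1 to 5 the median was 0.32. In the interaction with the library range, 6 of 27 had an unadjusted p under 0.05, beside 11.1% of all genes, and 0 passed. Over all 20 muscles the smallest p-values of this list belonged to Svil and Fhod3. Svil, which encodes the actin-binding protein supervillin, was at 0.26 (SE 0.0878, edgeR adjusted p = 0.192). Fhod3, a formin that assembles sarcomeric actin, was at 0.27 (SE 0.0948, edgeR adjusted p = 0.198). Within libraries 6 to 15 Svil was at 0.14 (SE 0.0911) and Fhod3 at 0.22 (SE 0.105). Between libraries 16 to 20 and 1 to 5 they were at 0.40 and 0.33. Of these lists, neither DESeq2 nor voom called a gene.

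Of 9 other slow-fibre genes tested, 0 passed over all 20 muscles, with 6 positive and 3 negative fold changes and a median of 0.05. At an unadjusted p under 0.05 the count was 0 of 9, beside 15.7% of all tested genes. In libraries 6 to 15 all 9 were negative with a median of -1.17, beside a median of -0.01 over all genes, and 0 passed. There 1 of 9 had an unadjusted p under 0.05, beside 9.95% of all genes. This was Atp2a2, at -0.93 (SE 0.326, edgeR adjusted p = 0.452). Between libraries 16 to 20 and 1 to 5 all 9 were positive, from 0.45 for Atp2a2 to 1.63 for Myl3, and 0 passed. Their median was 1.06 beside -0.05 over all genes. Within their treatments, Myh7, Myl2, Myl3 and Atp2a2 were highest in saline 8 (libraries 6 to 15) and secretome 8 (libraries 16 to 20). The others were highest in another muscle in at least 1 treatment. Several of these genes followed Tnnt1 from muscle to muscle, so their signs are not independent. The part of single muscles in these signs was not tested. Csrp3, a Z-disc protein, was at 0.77 over all muscles (SE 0.788, edgeR adjusted p = 0.653) and at -0.91 within libraries 6 to 15 (SE 0.795, edgeR adjusted p = 0.696). Of 10 other fast-fibre genes 0 passed, with Pvalb, the calcium buffer parvalbumin, at -0.55 (SE 0.245, edgeR adjusted p = 0.284) over all muscles and at 0.08 within libraries 6 to 15, and Myh4, the fastest myosin heavy chain, at 0.35 (SE 0.173, edgeR adjusted p = 0.323) and 0.05. DESeq2 and voom called 0 genes of both lists.

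Of 26 regulators of fibre type and of actin genes, 0 passed by edgeR and 2 were higher at an unadjusted p under 0.05, beside 6.52% of all tested genes. Tead1, a factor that binds M-CAT elements, was at 309 ± 60.8 CPM in saline and 427 ± 42.1 CPM in secretome muscle. Its log2 fold change was 0.47 (SE 0.108, edgeR adjusted p = 0.109). Tead1 was the 1 gene of the 26 that passed with DESeq2, which called 1.25% of its genes, and 0 of 26 passed with voom. In the mixed range of libraries Tead1 was at 0.38 (SE 0.156, edgeR adjusted p = 0.472). Mef2c, a muscle transcription factor, was at 0.35 (SE 0.160, edgeR adjusted p = 0.291).

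The 2 muscles with the most slow isoforms stood at the top of some marker lists of other cells and, for saline 8, at the bottom of others. Saline 8 had the highest sum of endothelial markers among saline muscles, at 191 CPM beside a median of 132 CPM, and of Schwann cell markers, at 23.6 beside 18.97 CPM, and the lowest sum of macrophage markers, at 31.5 beside 55.8 CPM, and of fibroblast markers, at 171 beside 535 CPM. Secretome 8 had the highest sum among secretome muscles of macrophage markers, at 81.7 beside 34.3 CPM, of neutrophil markers, at 106 beside 8.91 CPM, and of red blood cell markers, at 941 beside 197 CPM. For the myofibre markers, saline 8 had the highest sum of the saline muscles, at 337939 beside a median of 218685 CPM. Secretome 8 had the lowest of the secretome muscles, at 215795 beside 275735 CPM. That list includes Ttn, whose share of counts followed the library numbers. Over the treatments, all 5 macrophage markers had negative fold changes, 3 of them lower at an unadjusted p under 0.05 beside 9.21% of all tested genes, with sums of 31.5 to 98.5 CPM in saline and 24.9 to 81.7 CPM in secretome muscle, and DESeq2, which called 1.25% of its genes, called 1 of them, Csf1r. The part of these cells in the isoform values was not tested.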

How the data were processed

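The authors aligned the reads to GRCm39 and counted them per gene, and the submitters' processing notes name STAR 2.7.9a, cutadapt 1.16, featureCounts 1.6.3 and DESeq2 1.34.0. The authors deposited raw counts, 1 column per mouse. Strand setting and annotation release are not given in the sources used here. Symbols came from GENCODE M21, which is on GRCm38, so no gene coordinates are printed beside the promoter windows.

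In R 4.3.3, edgeR 4.0.16 kept 14471 of 55416 genes (filterByExpr) and tested the TMM-normalized counts for treatment alone (robust quasi-likelihood F-test, p-values adjusted by Benjamini-Hochberg over all tested genes). Libraries 6 to 15 were refitted alone. Standard errors are the fold change over the root of F. Ratios and correlations used permutation tests (numpy 2.4.6). The fit was tested on simulated data.

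Totals of 13286983 to 22987237 counts leave slow troponins at 0 to 580 counts per library, and the intervals on their shares cover counting error only.

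All 10 members are named, with the 2 genes of smallest p of the lists described, the 5 genes most like Tnnt1 and Tnnt3, and Ttn. Other genes were chosen after their values were seen. The members and lists were chosen with earlier results of these data known. Alternatives were DESeq2 1.42.0, voom of limma 3.58.1, other normalization, filters and pseudocounts (0.1 and 5 were added after the data were seen), the replicate block, range terms, and each muscle left out.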

Additional observations from a re-analysis of the deposited data

Results flagged for a closer look

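Of 28 groups of 10 muscles (each member and each ratio by treatment), 3 held a muscle far from the others by Dixon's criterion, where chance gives about 1.4. Fast troponin T, Tnnt3, was at 11.99 on the log2 CPM scale in saline 2, the lowest of 10 saline muscles, with the next at 12.50. Slow tropomyosin, Tpm3, was at 6.29 on the log2 CPM scale in secretome 8, the highest of 10 secretome muscles, with the next at 4.67. The log2 ratio of Tpm1 over Tpm3 was 6.66 in the same muscle, with the next at 8.39, and it shares its Tpm3 counts with that value. The treatment difference of Acta1 differed between libraries 6 to 15 and the other libraries by -0.49 on the log2 scale (SE 0.195, unadjusted p = 0.0212), which did not pass the false discovery rate (edgeR, adjusted p = 0.342).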

How the results depend on the processing

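No member passed the false discovery rate under any alternative run. Over all 20 muscles the count of genes past it was 1, and 216 with DESeq2, 3 with voom, 0 with the replicate block, 0 with a term for the 3 library ranges, and 0 to 15 with 1 muscle left out. Within libraries 6 to 15 it was 0, and 37 with DESeq2, 11 without a filter on low counts and 0 to 2 with 1 muscle left out. For the interaction it was 8, and 186 with DESeq2, 149 with voom, 2 without the filter, 4 with length and GC trends removed and 1 to 9 with 1 muscle left out. The cause of these changes was not tested.

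The replicate numbers did not pair the muscles (correlations of deviations from -0.24 to 0.22, 2 of 10 pairs over 0.1, and 0 saline muscles closest to their own number). With the replicate block, the Tpm1 over Tpm3 difference of 0.53 had a permutation p of 0.0254. With 1 muscle left out, the ratio differences ranged from 0.17 to 1.13 (troponin T), 0.85 to 1.98 (troponin I), 1.14 to 2.30 (troponin C) and 0.36 to 0.74 (tropomyosin) over all muscles, and from 0.22 to 2.38, 1.3401 to 3.12, 0.96 to 2.93 and 0.33 to 0.91 within libraries 6 to 15.

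Fold changes that turned sign were Tnnt1 at 0.0758 with voom, and at -2.13 to 0.31 with 1 muscle left out, Tnni2 at 0.000665 and Tpm2 at 0.0175 with length and GC trends removed, and Acta1 at -0.0850 with the term for 3 ranges. In libraries 6 to 15 they were Tnni2 at 0.0153 with voom and 0.0655 with the trends removed, Acta1 at 0.0624 with the trends removed, and, with 1 muscle left out, Tnnt3 at -0.00157 to 0.0580, Tnni2 at -0.21 to 0.12 and Tnnc2 at -0.32 to 0.0507. The Tnnc1 interaction was 0.0289 with voom. Slow troponins at 0 to 10 counts in several libraries limit the precision of their ratios.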
